A study of Homo sapiens with 9 samples.

Results

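The genes described here encode RNA polymerase II (Pol II) and the general transcription factors that place it at promoters. They were chosen by symbol: the POLR2 subunit genes, all symbols that begin with GTF2, the numbered TAF genes and TBP. On the arrays, 54 of 19775 genes with a probe set of their own matched, and 46 were bright enough to be tested, of 12616 genes tested in all. The 8 others were TAF1L, TAF7L, GTF2A1L, GTF2IRD2B, the antisense transcript GTF2A1-AS1 and the pseudogenes GTF2IP12, GTF2IP20 and GTF2IP7. Another 7 symbols, TAF9 and GTF2H2 among them, had only probe sets shared with other genes and were not tested.

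The study used A549 cells, an established line from a human lung adenocarcinoma, cultured in DMEM with serum, and profiled their RNA on 9 Affymetrix arrays. The si-Ctrl group held 3 samples with a control oligo, the si-Med23 group 3 samples with an RNA interference oligo against MED23, and the si-Elk1 group 3 samples with an oligo against ELK1. Each knockdown sample carried another oligo, A, B or C, so the spread within a knockdown includes differences between oligos, and the series' design text calls the 3 of a group different cell lines. The labels do not say that the control samples were separate cultures, so the p-values speak only of the spread among these samples, and it may be technical. MED23 is a subunit of Mediator, the complex that connects transcription factors to Pol II, and ELK1 is an ETS-family transcription factor that the ERK kinases phosphorylate. The series' title asks about the requirement for MED23 in lung cancer with active Ras.

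As background, TFIID, made of TBP and the TAF proteins, recognises the core promoter, and TFIIA and TFIIB stabilise it there and recruit Pol II together with TFIIF. TFIIE and TFIIH then join, and TFIIH opens the DNA with its helicases and phosphorylates the tail of the largest Pol II subunit. Mediator contacts the same assembly, and a number of Pol II subunits are also parts of Pol I and Pol III.

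The deposited values are probe set signals, analysed here as log2(signal + 1), so that a difference of 1 is a 2-fold change. All directions are relative to a scaling that gives each array the same trimmed mean, 500.1. The RNA came from bulk cells, in which fewer cells with a transcript and fewer copies per cell cannot be told apart. The knocked-down genes followed the labels. MED23 lay between 9.05 and 9.27 on the si-Ctrl arrays and at 6.79, 6.19 and 7.06 on the si-Med23 arrays, a change of -2.46 ± 0.27 (SE, n = 3 arrays per group), or 18.2% of control (limma, adjusted p = 0.00184). ELK1 lay between 9.29 and 9.61 in si-Ctrl and at 7.07, 7.15 and 7.83 in si-Elk1, a change of -2.07 ± 0.26 (SE, n = 3 arrays per group), or 23.8% of control (limma, adjusted p = 0.00684). All 10 markers listed for A549-like epithelial cells were above the level set for testing, as were 3 of 4 measured for blood cells (CD14, CD3E and HBB), 2 of 4 for endothelium (PECAM1 and ROBO4) and 0 of 4 for fibroblasts. The pan-leukocyte marker PTPRC and the endothelial CDH5 and VWF were below it. The summed blood cell marker signal ranged on the log2 scale from 8.31 to 9.27 in si-Ctrl, from 9.34 to 10.18 in si-Med23 and from 9.93 to 10.19 in si-Elk1, moving with CD14, and its part in the results was not tested. The array of si-Elk1 oligo C stood apart from its group. Its mean correlation with the other si-Elk1 arrays was 0.9592, against 0.9689 or more for every other array with its own group, and its correlation with the si-Med23 mean was 0.9641, against 0.945 and 0.9477 for oligos A and B.

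Under the deposited scaling, single subunits of several of these complexes fell or rose with MED23 knockdown. With poly-A spike scaling all 46 genes tested were lower, as were 11333 of all 12616 genes tested. In si-Med23 against si-Ctrl, 11 of the 46 genes tested fell and 5 rose, and 30 did not pass (limma, adjusted p under 0.05). The falls were GTF2A1 of TFIIA, GTF2F2 of TFIIF, GTF2H1, GTF2H3 and GTF2H5 of TFIIH, the GTF2H2 copy GTF2H2B, TAF1, TAF2 and TAF13 of TFIID, TAF15, and POLR2B of Pol II. The rises were POLR2G, POLR2I and POLR2J of Pol II and TAF10 and TAF12 of TFIID, and all 5 turned negative when the arrays were scaled on their poly-A spikes. Of all 12616 genes tested, 39.8% passed in this comparison, 19.5% as lower and 20.3% as higher, so the shares among these genes, 23.9% lower and 10.9% higher, are to be read against that level. The median change was 0.04 over these genes and 0.09 over all genes tested. The si-Med23 and si-Ctrl arrays did not overlap for 26 of the 46 genes, against 57.3% of all genes.

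**Figure D1:**
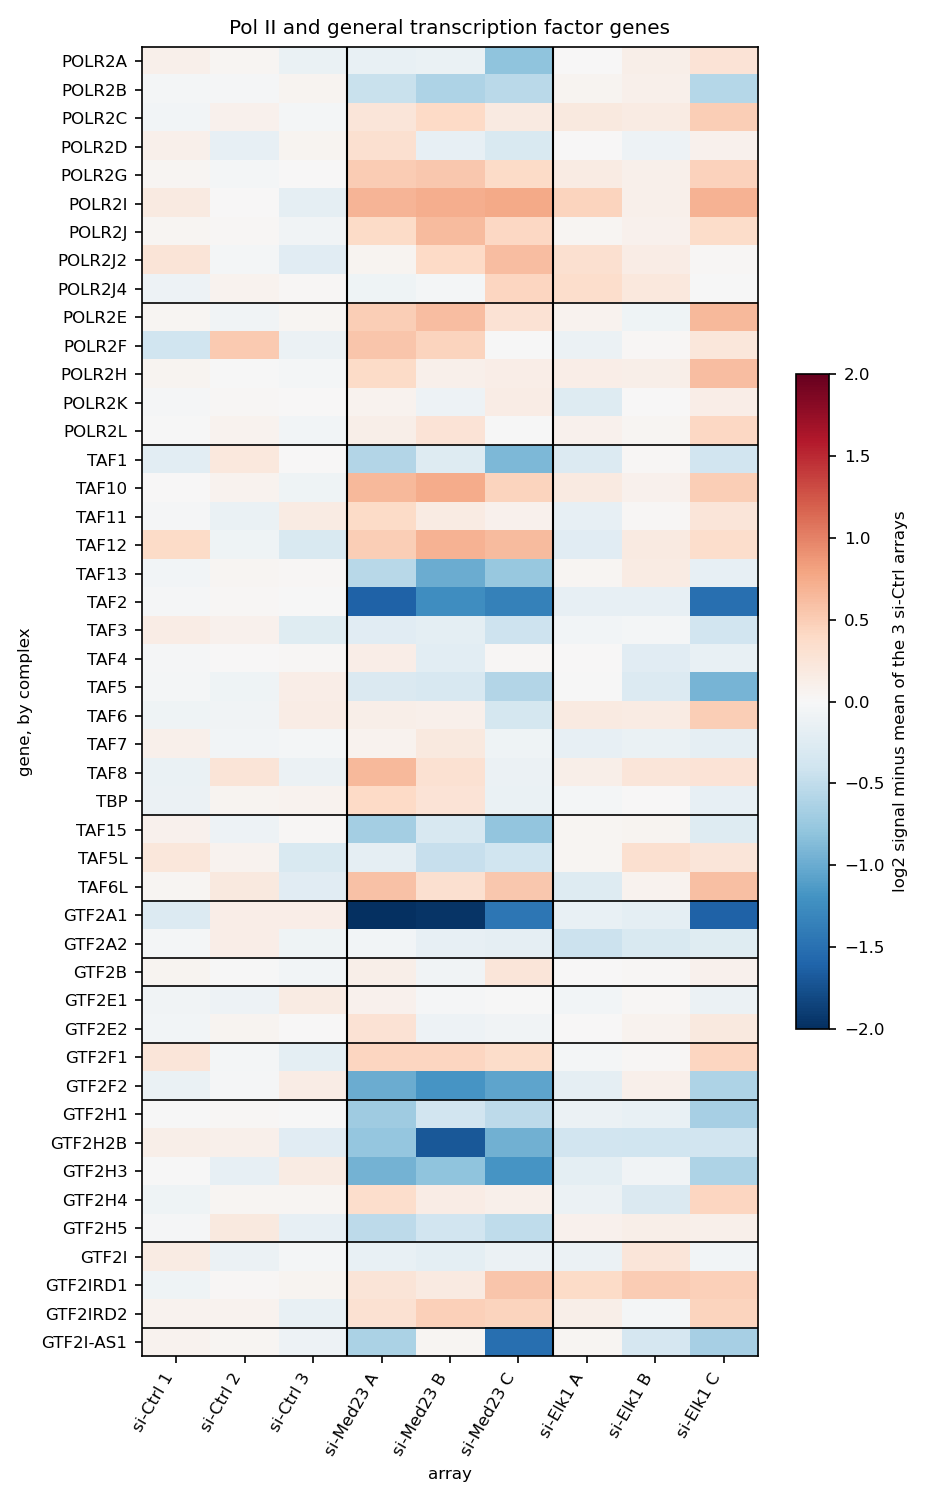
Signal of the 46 genes tested on each of the 9 arrays, as log2 signal minus the mean of the 3 si-Ctrl arrays (colour, saturated beyond -2 and 2), with genes grouped by complex and arrays grouped by oligo. GTF2A1, TAF2, GTF2F2, GTF2H2B and GTF2H3 are blue on all 3 si-Med23 arrays, POLR2G, POLR2I, POLR2J and TAF10 are red there under the deposited scaling and turned negative under poly-A scaling, and the si-Elk1 C array resembles the si-Med23 arrays for GTF2A1, TAF2 and POLR2B.

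The promoters of these genes, changed or not, were read from RefSeq on GRCh38.p14, where 37 of the 54 genes had an entry. They span from 250 bases before to 50 after the start site. Motif letters were searched on both strands. The ETS-factor letters CCGGAAG occurred in 13 of the 37 (35.1%) and in 10.7% of all 27305 promoters. Among genes tested, they were in 13 of 34 of this set (38.2%) and in 18.8% of all. They were in 7 of 24 that did not pass in si-Med23, against 17.6% of all such genes, and in 19.6% of all genes that rose. They occurred in 5 of the 8 promoters found for genes that fell in si-Med23 (TAF1, TAF13, GTF2A1, GTF2H1 and GTF2H3), against 21.7% for all genes that fell. Shown here are 150 bases up to the start site for these 5 and for TAF12, which rose and holds the letters at 2 places. GTF2H3 holds them at 2 places as well, not all within the bases shown. POLR2B and GTF2H5 fell, hold none and are not shown. Also shown are TAF10 and GTF2F2, which moved in opposite directions and hold none. Each reads 5′ to 3′ on the strand of the gene, and capitals mark CCGGAAG or its reverse complement CTTCCGG.
TAF1: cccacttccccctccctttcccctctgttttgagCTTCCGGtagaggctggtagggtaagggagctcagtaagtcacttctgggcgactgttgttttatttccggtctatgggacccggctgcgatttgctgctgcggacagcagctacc
TAF13: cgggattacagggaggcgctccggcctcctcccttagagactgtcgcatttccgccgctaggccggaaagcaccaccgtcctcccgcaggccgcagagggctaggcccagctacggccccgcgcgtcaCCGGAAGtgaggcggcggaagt
GTF2A1: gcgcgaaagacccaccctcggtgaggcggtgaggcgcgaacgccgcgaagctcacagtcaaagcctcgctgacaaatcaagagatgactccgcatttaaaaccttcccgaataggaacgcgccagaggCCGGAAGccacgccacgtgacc
GTF2H1: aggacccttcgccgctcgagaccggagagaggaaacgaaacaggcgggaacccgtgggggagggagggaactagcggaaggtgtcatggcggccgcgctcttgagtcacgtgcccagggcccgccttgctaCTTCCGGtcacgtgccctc
GTF2H3: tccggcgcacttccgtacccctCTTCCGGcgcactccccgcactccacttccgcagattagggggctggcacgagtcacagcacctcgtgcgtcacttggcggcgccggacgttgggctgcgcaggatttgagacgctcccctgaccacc
TAF12: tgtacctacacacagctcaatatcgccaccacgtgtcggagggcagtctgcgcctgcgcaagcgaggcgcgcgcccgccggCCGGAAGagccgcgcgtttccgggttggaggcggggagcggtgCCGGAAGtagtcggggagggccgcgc
TAF10: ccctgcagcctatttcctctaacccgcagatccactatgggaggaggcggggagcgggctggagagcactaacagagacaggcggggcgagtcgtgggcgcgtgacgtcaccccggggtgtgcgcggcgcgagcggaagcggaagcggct
GTF2F2: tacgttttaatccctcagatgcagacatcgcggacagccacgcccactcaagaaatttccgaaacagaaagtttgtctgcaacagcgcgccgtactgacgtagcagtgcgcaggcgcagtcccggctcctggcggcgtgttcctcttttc
These lie at chrX:71366207-71366356 (plus strand), chr1:109076004-109076153 (minus strand), chr14:81221391-81221540 (minus strand), chr11:18322417-18322566 (plus strand), chr12:123633679-123633828 (plus strand), chr1:28643068-28643217 (minus strand), chr11:6612217-6612366 (minus strand) and chr13:45120360-45120509 (plus strand), in that order. The other letters searched were the TATA box TATAAA, found in 1 of the 37 promoters (GTF2B), in 12% of all promoters and in 5.75% of those of the genes tested, and the GC box GGGCGG, in 21 of the 37 (56.8%), in 44.6% of all promoters and in 69.2% of those of the genes tested. The NRF1 motif was in 1 of the 37 (POLR2F), 1.36% of all and 2.28% of those of the genes tested, and 2 forms of the SRF motif were in none of the 37. A match describes the letters only, and no binding was measured.

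TFIIA gave the largest change of the 46 genes. GTF2A1 encodes the precursor of the large TFIIA subunits, and its promoter is the third one shown. Its signal was 9.97, 10.37 and 10.37 on the si-Ctrl arrays, 7.91, 8.27 and 8.79 on the si-Med23 arrays, and 10.10, 10.04 and 8.62 on the si-Elk1 arrays. Every si-Med23 array lay below every si-Ctrl array, and si-Elk1 oligo C lay with si-Med23 while oligos A and B lay with si-Ctrl. The change in si-Med23 was -1.91 ± 0.39 (SE, n = 3 arrays per group), or 26.6% of control (limma, adjusted p = 0.00723). A dimmer probe set of GTF2A1 went the other way, by 0.91, from a mean of 5.46 to 6.38, and with the mean of both probe sets the change was -0.50 and did not pass (limma, adjusted p = 0.246). GTF2A2, the small TFIIA subunit, had 13.13, 13.30 and 13.07 in si-Ctrl and 13.11, 13.00 and 12.98 in si-Med23, overlapping groups with a difference of -0.14 (limma, adjusted p = 0.367). Its other probe sets differed by -0.71 and -1.41, so the probe sets of this gene gave different sizes.

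In TFIIF, GTF2F2 passed and GTF2F1 did not. GTF2F2, the smaller subunit, which binds Pol II and TFIIB, read 8.52, 8.63 and 8.80 in si-Ctrl, 7.66, 7.47 and 7.59 in si-Med23, and 8.46, 8.75 and 8.04 in si-Elk1. All si-Med23 arrays were below all others, and the change from si-Ctrl was -1.08 ± 0.18 (SE, n = 3 arrays per group), or 47.4% of control (limma, adjusted p = 0.00379). GTF2F1, the larger subunit, read 10.28, 9.99 and 9.84 in si-Ctrl and 10.46, 10.46 and 10.41 in si-Med23. Its groups did not overlap, but the difference of 0.41, which turned negative under poly-A and hybridization control scaling, did not pass (limma, adjusted p = 0.0754).

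In TFIIH, 4 of the 5 GTF2H genes tested fell, 1 of them a gene copy, where 19.5% of all genes tested were lower. GTF2H1, GTF2H3 and GTF2H5 encode subunits of the core of the complex, which acts in DNA repair as well as in initiation, and the fourth, GTF2H2B, is a copy of the core gene GTF2H2. GTF2H3 read 10.35, 10.20 and 10.53 in si-Ctrl, 9.42, 9.56 and 9.18 in si-Med23, and 10.17, 10.30 and 9.75 in si-Elk1, with no overlap between si-Med23 and either other group. Its change was -0.98 ± 0.18 (SE, n = 3 arrays per group; limma, adjusted p = 0.00482), and its other probe set changed by -0.45. GTF2H2B, which is near-identical to GTF2H2, read 7.58, 7.57 and 7.25 in si-Ctrl and 6.69, 5.78 and 6.51 in si-Med23, a change of -1.14 ± 0.23 (SE, n = 3 arrays per group; limma, adjusted p = 0.00618). Its signal is uncertain as a measure of 1 copy, since probe sets shared among the GTF2H2 copies also moved down, by -1.27, -0.90 and -0.79, the last with overlapping arrays. GTF2H5, the smallest core subunit, mutated in a form of trichothiodystrophy, read 12.05, 12.27 and 11.91 in si-Ctrl and 11.56, 11.70 and 11.58 in si-Med23, with no overlap. Its change of -0.47 ± 0.12 (SE, n = 3 arrays per group; limma, adjusted p = 0.0168) did not pass without si-Ctrl 2 (adjusted p = 0.0613). GTF2H1 changed by -0.54 ± 0.17 (SE, n = 3 arrays per group; limma, adjusted p = 0.0313), with other probe sets at -1.03 and -0.14. That call ended without si-Ctrl 1, 2 or 3 or without si-Med23 A or C (limma, adjusted p from 0.0663 to 0.0931). GTF2H4, the subunit that holds the XPB helicase, differed by 0.20 and did not pass (limma, adjusted p = 0.406), and the sign turned under the spike-in and hybridization control scalings.

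In TFIID, 3 of the 13 genes tested fell and 2 rose, where 19.5% of all genes tested were lower and 20.3% higher. TAF2, which contacts the initiator element, read 10.99, 11.03 and 11.00 in si-Ctrl, 9.38, 9.77 and 9.66 in si-Med23, and 10.84, 10.85 and 9.50 in si-Elk1. The si-Med23 arrays were all lower than si-Ctrl, and si-Elk1 C lay among them. The change was -1.41 ± 0.33 (SE, n = 3 arrays per group), or 37.8% of control (limma, adjusted p = 0.0114), and its other probe set changed by -1.50. TAF13, which pairs with TAF11, read 10.99, 11.08 and 11.06 in si-Ctrl, 10.49, 10.05 and 10.29 in si-Med23, and 11.09, 11.21 and 10.89 in si-Elk1. The si-Med23 arrays were lower than all others, with a change from si-Ctrl of -0.77 ± 0.14 (SE, n = 3 arrays per group; limma, adjusted p = 0.00538). Its partner TAF11 differed by 0.21 and did not pass (limma, adjusted p = 0.286). TAF1, the largest TFIID subunit, changed by -0.58 ± 0.20 (SE, n = 3 arrays per group; limma, adjusted p = 0.0424). That call was lost without si-Ctrl 2 or 3, si-Med23 A or C, or si-Elk1 A (limma, adjusted p from 0.0586 to 0.13).

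The rises in TFIID were in TAF10 and TAF12, which TFIID shares with the SAGA coactivator. TAF10 read 12.38, 12.46 and 12.30 in si-Ctrl, 13.02, 13.12 and 12.83 in si-Med23, and 12.57, 12.46 and 12.88 in si-Elk1. Every si-Med23 array was above every si-Ctrl array, and si-Elk1 C lay inside the si-Med23 range. The change was 0.61 ± 0.14 (SE, n = 3 arrays per group; limma, adjusted p = 0.0116), but 2 dimmer TAF10 probe sets each changed by -0.49, and the mean over all of them by -0.12. TAF12 changed by 0.61 ± 0.21 (SE, n = 3 arrays per group; limma, adjusted p = 0.0453), a call lost without si-Ctrl 2 or 3, without any 1 si-Med23 array or without si-Elk1 B (limma, adjusted p from 0.0608 to 0.149). TBP, the TATA-binding subunit, read 9.77, 9.96 and 9.96 in si-Ctrl, 10.30, 10.18 and 9.76 in si-Med23, and 9.86, 9.90 and 9.73 in si-Elk1. These groups overlapped, and the difference of 0.18, with a 95% interval from -0.17 to 0.53, did not pass (limma, adjusted p = 0.379) and was negative under poly-A and hybridization control scaling. TAF3, TAF4, TAF5, TAF6, TAF7 and TAF8 lay between -0.40 and 0.28 and did not pass. Their other probe sets above the level for testing differed by 0.71 and 1.33 for TAF8, -0.47 for TAF3 and -0.72 for TAF5.

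Of the TAF-named genes outside TFIID, TAF15, an RNA-binding protein, read 9.47, 9.29 and 9.41 in si-Ctrl, 8.72, 9.07 and 8.60 in si-Med23, and 9.42, 9.45 and 9.13 in si-Elk1. All si-Med23 arrays were below all others. The change of -0.59 ± 0.16 (SE, n = 3 arrays per group; limma, adjusted p = 0.0176) stood beside -1.19 and -1.51 in its other probe sets above the level for testing, and was lost without si-Ctrl 1 or 3 or si-Med23 A or C (limma, adjusted p from 0.0517 to 0.0588). TAF5L and TAF6L, the SAGA counterparts of TAF5 and TAF6, differed by -0.35 and 0.48 and did not pass (limma, adjusted p = 0.119 and 0.111), and the TAF6L value turned negative under poly-A and hybridization control scaling.

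**Figure D2:**
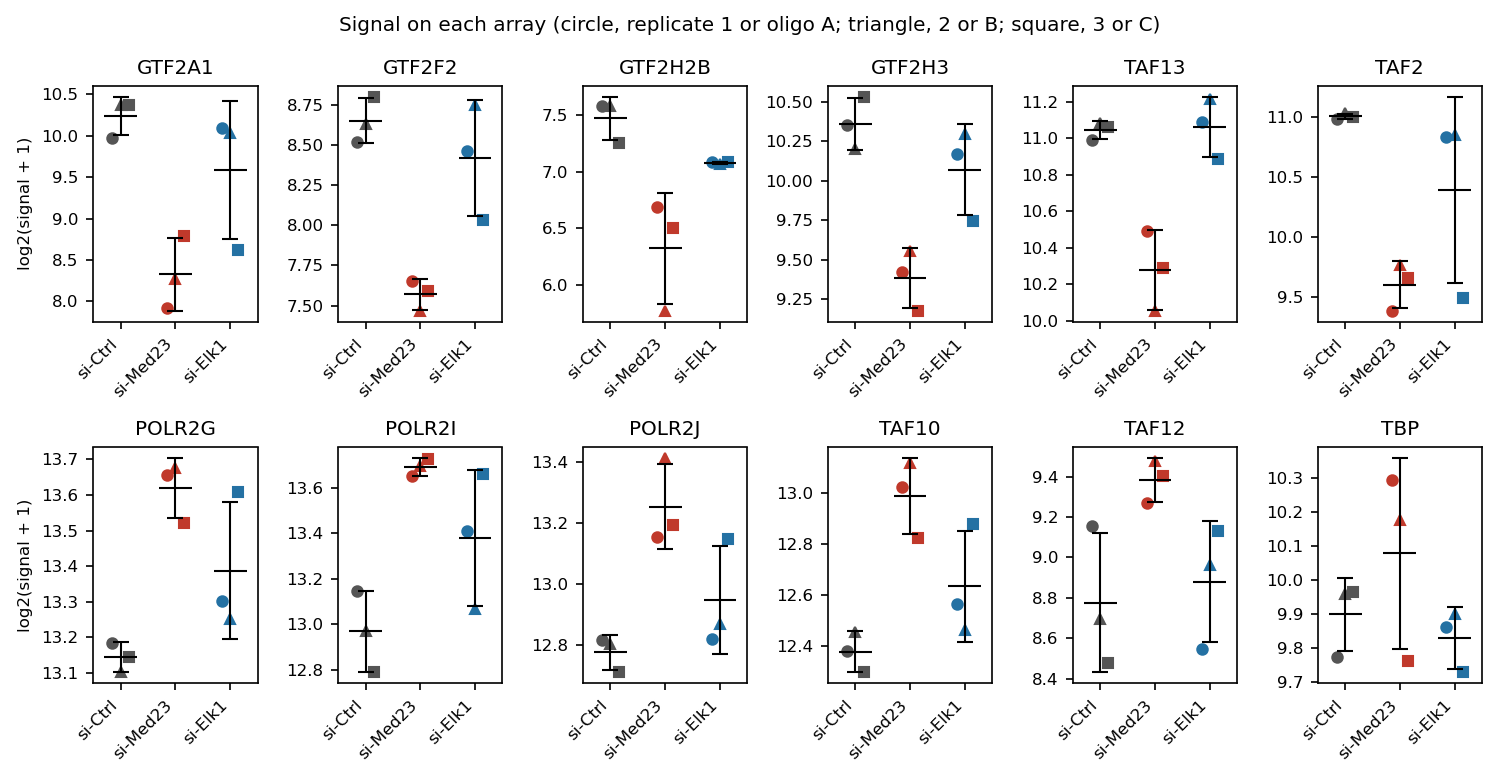
Signal on each array, as log2(signal + 1), for the 6 genes that fell under every scaling tried (upper row), the 5 that rose under the deposited scaling and TBP (lower row), with arrays grouped by oligo, horizontal lines at group means and bars of 1 SD over 3 arrays. The si-Med23 arrays lie below all si-Ctrl arrays in the upper row, the 5 rises turned negative under poly-A scaling, TBP overlaps between groups, and the si-Elk1 C array (square) lies nearest si-Med23 for GTF2A1 and TAF2.

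Of the 9 genes grouped as Pol II subunits found in no other polymerase, 3 rose, 1 fell and 5 did not pass. The 9 include POLR2J2 and POLR2J4, copies of POLR2J. Of all genes tested, 20.3% were higher and 19.5% lower. POLR2I, a small subunit at the edge of the enzyme that acts in fidelity, read 13.15, 12.97 and 12.79 in si-Ctrl, 13.65, 13.69 and 13.73 in si-Med23, and 13.41, 13.07 and 13.66 in si-Elk1. The si-Med23 arrays were above all si-Ctrl arrays, and the si-Elk1 arrays reached both ranges. The change of 0.72 ± 0.17 (SE, n = 3 arrays per group; limma, adjusted p = 0.0108) fell to 0.23 and did not pass under hybridization control scaling and was -0.68 under poly-A scaling. POLR2G, which with POLR2D forms the stalk of Pol II, read 13.19, 13.10 and 13.15 in si-Ctrl and 13.66, 13.68 and 13.52 in si-Med23. Its groups did not overlap and the change was 0.47 ± 0.13 (SE, n = 3 arrays per group; limma, adjusted p = 0.0185), while its stalk partner POLR2D differed by -0.05 (limma, adjusted p = 0.821). POLR2J, which pairs with POLR2C in the assembly core, read 12.82, 12.80 and 12.71 in si-Ctrl and 13.15, 13.41 and 13.19 in si-Med23, with no overlap. It changed by 0.48 ± 0.13 (SE, n = 3 arrays per group; limma, adjusted p = 0.0209), but near-identical copies of this gene (POLR2J2, POLR2J3 and POLR2J4) can share its probes, so the gene that gave the signal is uncertain. POLR2C differed by 0.28 and did not pass (limma, adjusted p = 0.121).

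The POLR2G and POLR2J calls each turned to -0.02 under hybridization control scaling and to -0.93 under poly-A scaling. They were lost without si-Ctrl 2 or 3 or si-Med23 B, and also without si-Med23 A for POLR2G and without si-Ctrl 1 for POLR2J (limma, adjusted p from 0.0506 to 0.0731). POLR2A, which carries the tail that TFIIH phosphorylates, read 10.19, 10.12 and 9.95 in si-Ctrl, 9.93, 9.96 and 9.28 in si-Med23, and 10.09, 10.21 and 10.35 in si-Elk1. Its si-Ctrl and si-Med23 arrays overlapped, and the difference of -0.36 did not pass (limma, adjusted p = 0.161). POLR2B, the other large subunit of the active centre, changed by -0.53 ± 0.18 (SE, n = 3 arrays per group; limma, adjusted p = 0.0427), with its other probe set at -0.70. This call was lost without any 1 of the 6 si-Ctrl and si-Med23 arrays (limma, adjusted p from 0.0695 to 0.115).

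In si-Med23 against si-Ctrl, 39.8% of all genes tested passed. None of the 5 Pol II subunits shared with Pol I and Pol III passed (POLR2E, POLR2F, POLR2H, POLR2K and POLR2L; limma, 1 at an unadjusted p under 0.05). Their differences lay between 0.04 and 0.47, all positive under the deposited scaling and all negative under poly-A and hybridization control scaling. POLR2E, highest of these, read 12.20, 12.10 and 12.19 in si-Ctrl, 12.66, 12.79 and 12.45 in si-Med23, and 12.23, 12.07 and 12.81 in si-Elk1. Its si-Ctrl and si-Med23 arrays did not overlap, yet the difference of 0.47 missed the threshold (limma, adjusted p = 0.0816). POLR2F had overlapping arrays, from 10.46 to 11.39 in si-Ctrl and from 10.86 to 11.42 in si-Med23, and differed by 0.33 (limma, adjusted p = 0.311).

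The genes of TFIIB and TFIIE lay near 0 under the deposited scaling. GTF2B, the sole TFIIB gene, read 10.47, 10.40 and 10.35 in si-Ctrl, 10.52, 10.34 and 10.65 in si-Med23, and 10.42, 10.43 and 10.50 in si-Elk1. The groups overlapped, and the si-Med23 difference of 0.10 had a 95% interval from -0.17 to 0.36 (limma, adjusted p = 0.52). The TFIIE genes GTF2E1 and GTF2E2 differed by 0.02 and 0.04, with 95% intervals from -0.25 to 0.28 and from -0.26 to 0.34 (limma, adjusted p = 0.91 and 0.829). All 3 values turned negative under poly-A and hybridization control scaling and passed there as lower. In the TFII-I family, DNA-binding factors that carry the GTF2 name but are not part of the basal machinery, 0 of 3 genes passed (limma, 2 at an unadjusted p under 0.05). The share over all genes tested was 39.8%. GTF2I, GTF2IRD1 and GTF2IRD2 differed by -0.16, 0.33 and 0.41 (limma, adjusted p = 0.379, 0.0704 and 0.0561), and the positive values turned negative under both control-probe scalings. The antisense transcript GTF2I-AS1 differed by -0.70 (limma, adjusted p = 0.139).

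**Figure D3:**
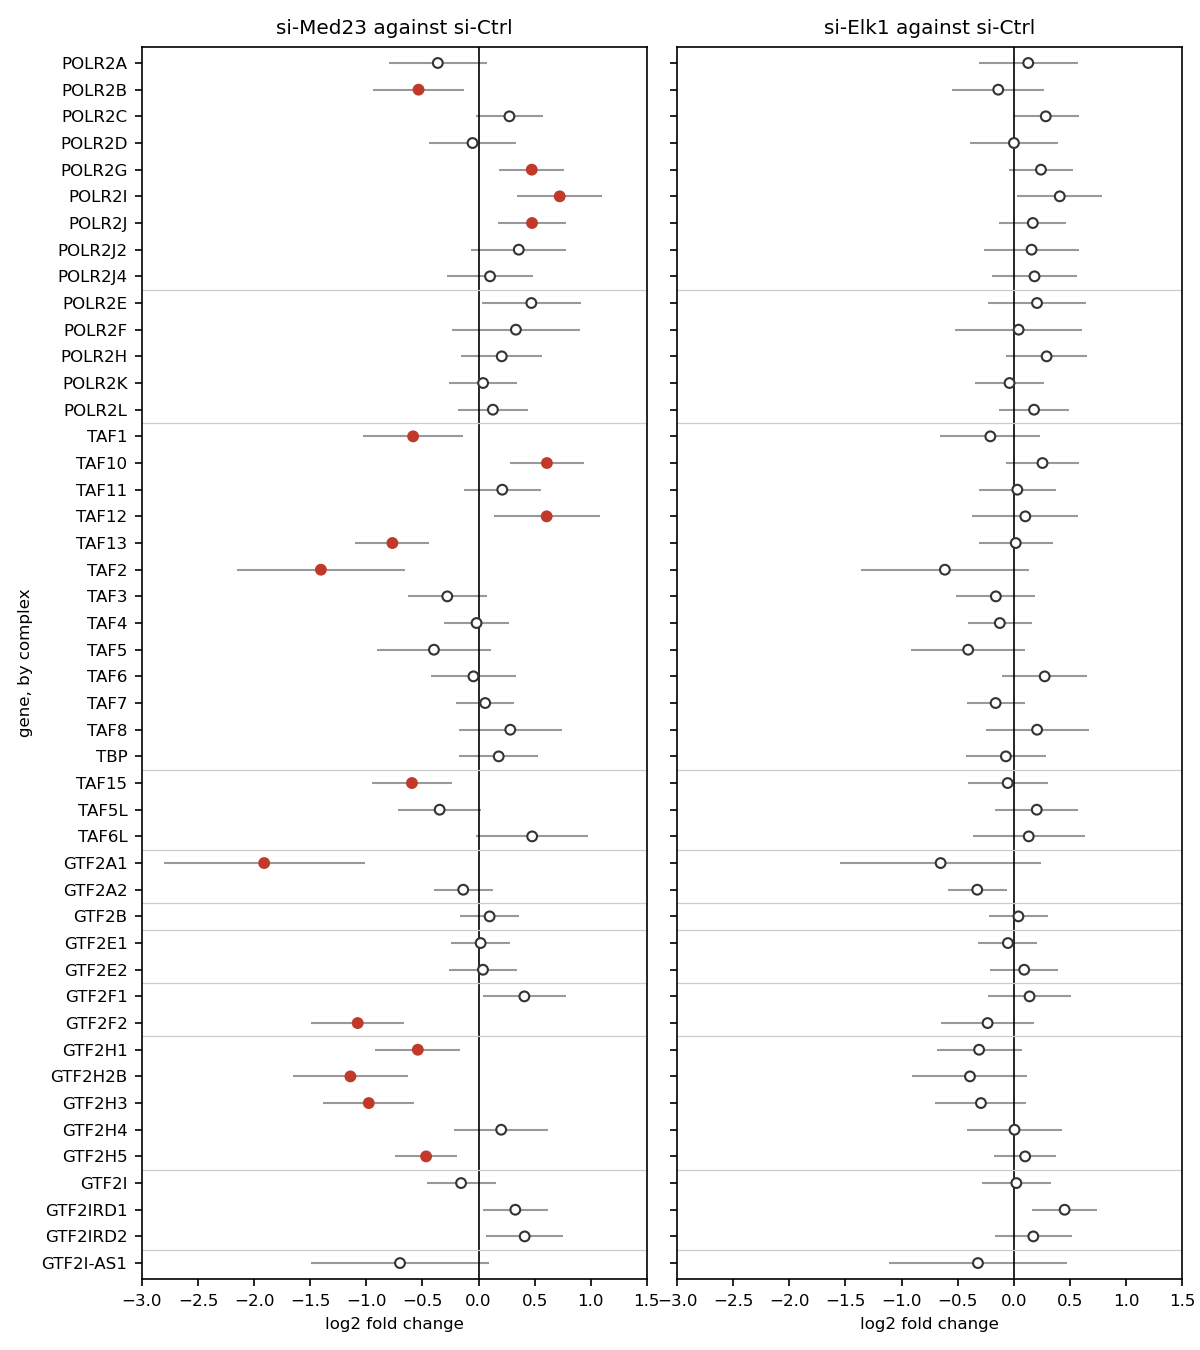
Log2 fold change from si-Ctrl of the 46 genes tested, grouped by complex, in si-Med23 (left) and si-Elk1 (right), with 95% confidence intervals from limma and filled red points where the adjusted p is under 0.05. In si-Med23 11 genes lie lower and 5 higher, and in si-Elk1 none is filled. The 5 higher points turned negative under poly-A scaling.

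Of the 16 calls in si-Med23, 6 held under all 4 other scalings tried and with each of the 9 arrays left out in turn. They were GTF2A1, GTF2F2, GTF2H2B, GTF2H3, TAF13 and TAF2, all lower. That is 13% of the 46 genes, and 11.7% of all genes tested met the same condition as lower. With median centring, the scaling that gave them the smallest size, their changes were -1.68, -0.85, -0.91, -0.75, -0.54 and -1.17. No rise met it, and 22 of the genes tested did as higher (0.174%). Poly-A and hybridization control scaling moved every gene in si-Med23 against si-Ctrl by -1.4 and -0.497, which enlarges falls. The largest rise among the 46 genes was 0.72, so none of their rises could meet the condition. POLR2I and TAF10 kept their calls with each array left out. The poly-A spikes, RNAs added before labelling, read 7.16 ± 0.24 with the control oligo, 8.57 ± 0.12 with MED23 oligos and 7.79 ± 0.35 with ELK1 oligos (SD, n = 3 arrays), so scaling on them lowered every gene in si-Med23 by 1.40. The si-Med23 spikes were above all si-Ctrl arrays (exact permutation test, two-sided, p = 0.1, the smallest that 3 against 3 arrays allow). Under that scaling all 46 genes were lower in si-Med23, as were 11333 of the 12616 genes tested, while median centring gave 15 higher and 6 lower of the 46, and 4758 higher and 1681 lower of all genes tested. Which scaling reflects the RNA per cell was not tested.

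**Figure D4:**
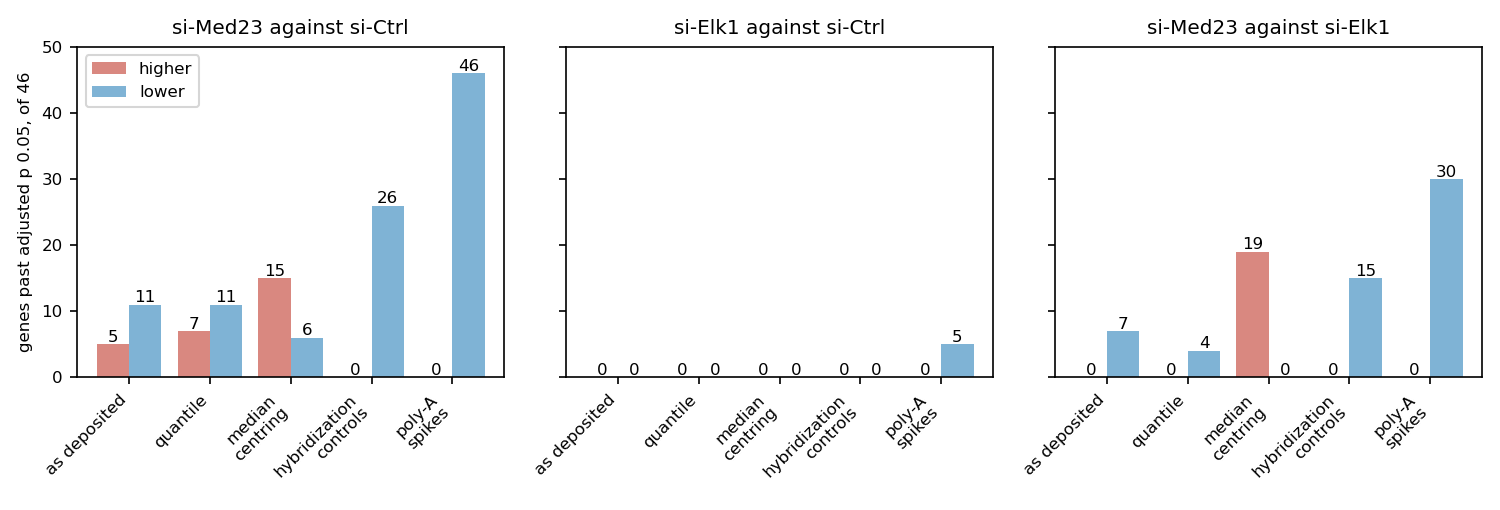
Number of the 46 genes past an adjusted p of 0.05 (limma) as higher or lower in each comparison, under the deposited scaling and 4 others. In si-Med23 against si-Ctrl the counts go from 15 higher and 6 lower with median centring to 0 higher and 46 lower with poly-A spike scaling. Over all 12616 genes tested, they go from 4758 higher and 1681 lower to 22 higher and 11333 lower.

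Probe sets that were not chosen for their gene gave a further reading. Above the level for testing there were 32 for 22 of these genes, 11 of them for 8 of the genes that changed in si-Med23. Of these 11, 8 moved in the direction of the probe set used, and the 3 that did not belong to TAF10 and GTF2A1. They come from the same arrays and are not replicates.

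**Figure D5:**
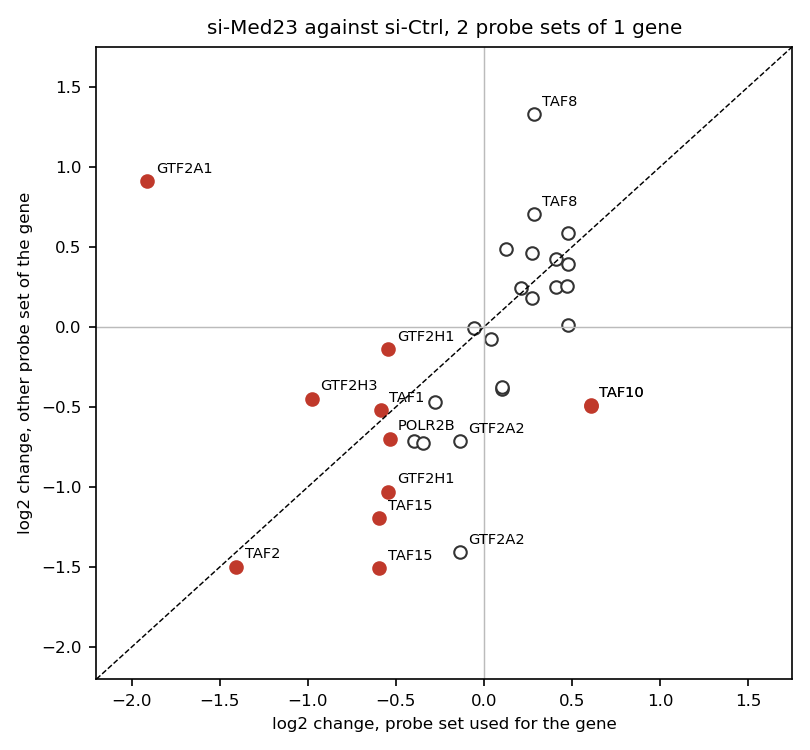
Log2 change in si-Med23 against si-Ctrl for the probe set used for a gene (x axis) and for its other probe sets above the level for testing (y axis), with red points for genes past an adjusted p of 0.05 (limma) and a dashed line of equality. TAF2, TAF15, TAF1, POLR2B, GTF2H1 and GTF2H3 lie lower on both axes, while GTF2A1 and TAF10 differ in sign; positive values turn negative or shrink under poly-A scaling.

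ELK1 knockdown gave no call among these genes in the probe sets used. In si-Elk1 against si-Ctrl, 0 of 46 passed in either direction (limma, 3 at an unadjusted p under 0.05), where 4.26% of all genes tested passed, 3.07% as higher and 1.19% as lower. The median difference was 0.04, against 0.05 over all genes tested, and the si-Elk1 and si-Ctrl arrays did not overlap for 12 of 46 genes, against 36.3% of all genes. The smallest p belonged to GTF2IRD1, which read 10.08, 10.20 and 10.23 in si-Ctrl, 10.55, 10.68 and 10.65 in si-Elk1, and 10.43, 10.35 and 10.72 in si-Med23. Both knockdowns lay above si-Ctrl on every array. Its si-Elk1 difference of 0.45, with a 95% interval from 0.16 to 0.75, missed the threshold (limma, adjusted p = 0.0788) and passed when dimmer genes were left out by a stricter filter (limma, adjusted p = 0.0461). GTF2A2 read 12.74, 12.87 and 12.92 in si-Elk1, below all si-Ctrl arrays, a difference of -0.33 (limma, adjusted p = 0.13). POLR2I differed by 0.41 (limma, adjusted p = 0.173), and this value and that of GTF2IRD1 were negative under poly-A scaling. Other probe sets above the level for testing were not tested singly, and some differed more in si-Elk1. Those of TAF5L and TAF3 were at -1.27 and -0.76, against 0.21 and -0.16 in the probe sets used. Those of GTF2A1, TAF8 and TAF6L reached 1.02, 0.83 and 0.79, against -0.65, 0.21 and 0.13. With all probe sets of a gene averaged, 0 of 44 genes passed (limma).

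For the 6 genes with the largest falls in si-Med23, the si-Elk1 differences were -0.65 for GTF2A1, -0.61 for TAF2, -0.39 for GTF2H2B, -0.23 for GTF2F2, -0.29 for GTF2H3 and 0.02 for TAF13, none past the threshold (limma, adjusted p from 0.276 to 0.948). The half-width of the 95% intervals ranged from 0.258 to 0.896 over the 46 genes, so changes of that size were not detectable for some of them. These comparisons share the si-Ctrl arrays. The si-Elk1 C array was the si-Elk1 array nearest the si-Med23 mean for 14 of the 16 genes that changed in si-Med23, and for 74.2% of all 5023 genes that changed there. Without it, the si-Elk1 differences of GTF2A1 and TAF2 were -0.17 and -0.16, and again none of the 46 genes passed (limma), with 1.44% of all genes higher and 0.658% lower. MED23 itself read 8.18 on the si-Elk1 C array and 8.87 and 9.02 with oligos A and B. Whether that level has a part in these values was not tested.

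Compared directly, si-Med23 was lower than si-Elk1 for 7 of the 46 genes and higher for none (limma), where 12.2% of all genes tested were lower and 9.54% higher, and 13 of the 46 had an unadjusted p under 0.05. The 7 were GTF2F2 (-0.84 ± 0.18), GTF2H2B (-0.75 ± 0.23), GTF2H3 (-0.69 ± 0.18) and GTF2H5 (-0.57 ± 0.12), and among TAF genes TAF13 (-0.79 ± 0.14), TAF5L (-0.55 ± 0.16) and TAF15 (-0.54 ± 0.16; all SE, n = 3 arrays per group). The other TAF5L probe set above the level for testing went the opposite way, by 0.54, from a mean of 7.04 in si-Elk1 to 7.58 in si-Med23. The arrays of the knockdowns did not overlap for 13 of the 46 genes, against 38% of all genes. TAF13 had the smallest p (limma, adjusted p = 0.0112) and was the one call kept with each array left out, though it did not pass with median centring (-0.42, adjusted p = 0.0607) or with the mean of its probe sets (-0.43, adjusted p = 0.166). GTF2A1 differed by -1.26 and missed the threshold (limma, adjusted p = 0.0515). Without si-Elk1 C, the counts became 9 lower and 8 higher, beside 19.4% and 16.2% of all genes, and GTF2A1 and TAF2 passed at -1.74 and -1.24 (limma, adjusted p = 0.00363 and 0.00161). In that fit POLR2G, POLR2J, POLR2E, TAF10, TAF6L and GTF2H4 were among the 8 higher, from 0.34 to 0.57. Without si-Elk1 A or without si-Elk1 B, 1 gene was lower, without si-Med23 C 3 were, and without si-Ctrl 1, si-Ctrl 2, si-Med23 A or si-Med23 B 4 were. Over all 12616 genes, 1535 were lower with every array, 414 and 494 without si-Elk1 A and B, and 1129 without si-Med23 C. The other left-out arrays just named gave 1149, 1165, 879 and 750, in that order. The call of GTF2H5 was lost without si-Elk1 A or B, that of GTF2F2 also without si-Med23 B, and that of GTF2H3 also without si-Med23 A or C. Those of TAF15, TAF5L and GTF2H2B were lost without 7 or 8 of the 9 arrays in turn (limma, adjusted p from 0.0516 to 0.131). With median centring 19 of the 46 genes were higher and 0 lower, as were 4685 and 553 of the 12616 genes tested. The genes that passed, and the direction of the calls, thus depended on the scaling. None of the 46 passed under both scalings, so the 19 are other genes than the 7.

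Leaving out si-Elk1 C also changed the count of rises in si-Med23 against si-Ctrl, through the shared estimate of the spread, from 5 to 9, with POLR2E, GTF2F1, GTF2IRD2 and TAF6L added, and TAF5 joined the falls (12 lower), beside 24.5% of all genes higher and 22.1% lower. Without si-Ctrl 2, si-Ctrl 3 or si-Med23 B, 2 genes were higher, and without si-Med23 A 3 were. Over all 12616 genes these fits gave 1923, 1500, 1809 and 2024 higher, in that order, against 2561 with every array. The falls numbered 7 without si-Ctrl 2, si-Ctrl 3, si-Med23 A or si-Med23 C. Over all genes 1951, 1674, 2053 and 2201 were lower in these, in that order, against 2462 with every array.

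Other genes of the transcription machinery were followed in 5 lists, 86 of 91 tested. Their counts in si-Med23 are to be read against the 19.5% of all genes tested that were lower, the 20.3% that were higher and the median of 0.09. Of the remaining TFIIH subunits, 2 of 5 fell in si-Med23: CCNH (-0.77) and CDK7 (-0.40), the cyclin and kinase that phosphorylate the Pol II tail. CCNH missed the threshold without si-Ctrl 3 (limma, adjusted p = 0.0511) and CDK7 without any of 7 arrays, up to 0.141. Of 13 other initiation factors and TBP regulators, 8 fell and 3 rose, with a median of -0.90. Those with the smallest p were BDP1 of TFIIIB (-1.95), TAF1D and TAF1B of the Pol I factor SL1 (-1.31 and -1.06) and TAF4B, a paralogue of TAF4 (-1.35). The 3 that rose under the deposited scaling were DRAP1 (0.69), BRF1 (0.78) and BRF2 (0.47).

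Of 37 pausing and elongation factors, 10 fell and 7 rose. A cyclin and the kinase of P-TEFb, which releases paused Pol II, moved in opposite directions under the deposited scaling: CCNT2 changed by -2.14 ± 0.25 and CDK9 by 1.09 ± 0.14 (SE, n = 3 arrays per group; limma, adjusted p = 0.00184 and 0.00202). CCNT2 read 8.89, 8.82 and 9.21 in si-Ctrl and 6.98, 7.16 and 6.35 in si-Med23. CDK9 read 9.19, 9.15 and 8.99 in si-Ctrl and 10.24, 10.31 and 10.04 in si-Med23, and its change was -0.31 under poly-A scaling. The elongation factor genes TCEA1 and CTR9 changed by -1.08 and -1.41. TCEA2 and PAF1 were among the 7 that rose under the deposited scaling, by 1.17 and 0.59. Of 13 CTD phosphatase and Pol II assembly genes, 4 fell (RPAP2 -1.20, RPAP3 -1.45, RPRD1A -1.22 and GPN3 -0.61 on the log2 scale) and 1 rose. Of 18 genes specific to Pol I or Pol III, 4 fell and 0 rose (POLR3G -1.60, POLR3F -1.38, POLR3B -0.36 and POLR1F -1.34 on the log2 scale). POLR3B did not pass without any 1 of 5 arrays and POLR1F without any 1 of 4 (limma, adjusted p from 0.0537 to 0.0802).

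In si-Elk1, where 1.19% of all genes tested were lower and 3.07% higher, 4 of these 86 genes passed, all lower: POLR3G (-1.07), TAF4B (-0.98), CDK12 (-0.75) and POLR3B (-0.49). Each call was lost without si-Elk1 C (limma, adjusted p from 0.0621 to 0.0844) and without other arrays, up to 0.135. All 4 were lower than si-Ctrl in si-Med23 as well, CDK12 with a change of -0.84.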

How the data were processed

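Per the labels' protocols, total RNA was extracted with Trizol, labelled with biotin as cRNA and hybridized to Affymetrix arrays. The deposited values are intensities, linear probe set signals. RMA and MAS5 are named, without version or role, per the submitters' processing notes; which genome build was used was not given in the sources used here. In the values, the 2% trimmed mean was 500.1 on every array, and median signals lay between 64.9 and 88.2, so the authors' scaling removes changes in total RNA.

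Groups came from the labels. Of 54675 probe sets, 62 were controls, 41091 named 1 gene, 1801 several and 11721 none in the platform annotation. Signals were analysed as log2(value + 1), the added 1 slightly understating changes of dim genes. Each gene was represented by its single-gene probe set with the highest mean. Genes under the median probe set mean (log2 6.05, a signal of 65.4) were left out. No detection calls were used. All 9 arrays entered 1 limma 3.58.1 fit (R 4.3.3; lmFit and eBayes, two-sided, no covariate), with Benjamini-Hochberg adjustment over 12616 genes. The fit was tested on simulated data. The number of arrays limits the precision. No scan date or batch was used, and no array was a duplicate (highest correlation 0.9789).

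The genes and lists were chosen with earlier results of these data known. By rule, array values are given for the targets, TBP, POLR2A, up to 3 members per role with the smallest p in si-Med23 against si-Ctrl, and the 5 with the smallest p in each other comparison; other members may be named by their change. Each pathway list names up to 4 genes by p in si-Med23. CDK12, DRAP1, BRF1, BRF2, TCEA2 and PAF1 were named after their values were seen. Alternatives were other filters, probe set choices, scalings, pseudocount 16, a replicate block, 6-array fits and each array left out. Names matched RefSeq for all 54, and sequences are RefSeq's (GRCh38.p14). TBPL2, NELFA, NELFE and POLR2M were among the listed genes not tested.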

Additional observations from a re-analysis of the deposited data

Results flagged for a closer look

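Probe sets that several genes share were left out of the tests, and in 2 of them every si-Med23 array lay above every si-Ctrl array, and in 3 below: -0.95 for AK6 and TAF9, and -0.90 and -1.27 for sets shared among the GTF2H2 copies. The probe set of POLR2J, POLR2J2, POLR2J3, POLR2J4 and UPK3BL1 differed by 1.04, from a mean of 10.41 to 11.45 on the log2 scale, with si-Elk1 at 10.62. The probe set of GTF2I and its copies GTF2IP1 and GTF2IP4 differed by 0.24, from 12.40 to 12.64. The array's control probe sets, which no gene comparison uses, were also brighter in both knockdowns than in si-Ctrl. The 27 poly-A spike probe sets differed by 1.40 in si-Med23 and 0.63 in si-Elk1, and the 18 hybridization control probe sets by 0.50 and 0.18 (exact permutation test, two-sided, p = 0.1 for each, the smallest possible). Without the 3 trp probe sets, which were near background, the spike differences were 1.61 and 0.639.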

How the results depend on the processing

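With si-Med23 against si-Ctrl, the 5 higher genes became 2 with no filter, 3 when all probe sets of a gene were averaged, 9 with the stricter filter at the 70th percentile, 2 without _x_at and _s_at probe sets, 15 with median centring, 0 with poly-A or hybridization control scaling and 8 in the 6-array fit. Higher among all genes were 2561 of 12616 as deposited, 1687 of 19775 with no filter and 1801 of 11059 with averaging. The stricter filter gave 2700 of 9142, and leaving out _x_at and _s_at probe sets 1565 of 9779. Of 12616 genes, 4758 were higher with median centring, 22 with poly-A, 409 with hybridization control scaling and 2774 in the 6-array fit. The 11 lower genes became 6 with median centring, 46 with poly-A and 26 with hybridization control scaling. Among 12616 genes, 1681, 11333 and 5205 were lower in those settings, beside 2462 as deposited. Leaving out each array gave 2 to 9 higher and 7 to 12 lower, beside 1500 to 3093 higher and 1674 to 2791 lower of 12616 genes. In si-Elk1 against si-Ctrl, 1 gene was higher with the stricter filter and 5 lower with poly-A scaling, and 0 in all other settings run, left-out arrays included (0 to 0). Over all genes, 598 of 9142 were higher with that filter and 2545 of 12616 lower with poly-A scaling. Between the knockdowns, 19 were higher with median centring, and lower genes numbered 3 with averaged probe sets, 1 with no filter, 4 with quantile normalization, 0 with median centring, 30 with poly-A scaling, 15 with hybridization control scaling and 2 in the 6-array fit, with 0 to 8 higher and 1 to 9 lower over left-out arrays. Over all 12616 genes, 1204 were higher and 1535 lower as deposited, and 4685 higher with median centring. Lower were 1053 of 11059 with averaging, 564 of 19775 with no filter and 1165 of 12614 with quantile normalization. Of 12616 genes, 553 were lower with median centring, 7428 with poly-A, 3943 with hybridization control scaling and 626 in the 6-array fit. Left-out arrays gave 355 to 2045 higher and 414 to 2451 lower. The replicate numbers did not pair the samples, since deviations of same-numbered arrays correlated between -0.176 and 0.0462 and 4 of 18 were best with their own number. With the replicate number as a block, si-Med23 had 3 higher and 9 lower, and 3 were lower than in si-Elk1. Of 12616 genes, 1989 were higher and 2120 lower in si-Med23 with this block, and 762 were lower than in si-Elk1. Among the genes selected for array values, and TAF12, in si-Med23 against si-Ctrl poly-A scaling reversed (turned the sign of a difference that passed under either scaling) ELK1 (-0.86), TBP (-1.22), POLR2I (-0.68), POLR2G (-0.93), POLR2J (-0.93), POLR2E (-0.93), POLR2F (-1.07), POLR2H (-1.20), POLR2C (-1.13), TAF10 (-0.79), TAF12 (-0.80), TAF6L (-0.93), GTF2B (-1.30), GTF2E1 (-1.38), GTF2E2 (-1.36), GTF2F1 (-1.0), GTF2IRD1 (-1.08) and GTF2IRD2 (-0.99), and against si-Elk1 GTF2B (-0.72) and GTF2E1 (-0.71). Hybridization control scaling reversed POLR2G (-0.02), POLR2J (-0.02), GTF2B (-0.40), GTF2E1 (-0.48) and GTF2E2 (-0.46), while further positive differences, those of TBP, TAF6L and POLR2E among them, turned negative under it without passing under either scaling. The mean of all probe sets reversed TAF10 (-0.12). These scalings move every gene of an array by the same amount, -1.4 and -0.497 in si-Med23, and median centring by 0.232. The cause of the other changes was not tested. Signals near background limit GTF2H2B and the dim second probe sets.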

Other observations

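Of the genes too dim to be tested, TAF7L read 3.54, 3.09 and 1.81 in si-Ctrl and 5.25, 4.68 and 5.79 in si-Med23, and the pseudogene GTF2IP12 read 4.68, 6.04 and 5.54 in si-Ctrl and 6.41, 6.90 and 6.58 in si-Med23, with no overlap for either. The probe set that TAF9, a TFIID and SAGA subunit, shares with AK6 read 12.24, 12.36 and 12.53 in si-Ctrl, 11.51, 11.20 and 11.56 in si-Med23, and 12.01, 12.01 and 11.55 in si-Elk1, so that both knockdowns lay below si-Ctrl on every array.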
